A study of Mus musculus with 29 samples.

Results

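Genes of glucose uptake, glycolysis and lactate export, 10 in all, were followed in cultures of mouse adipose tissue. They are the glucose transporter Slc2a1, the hexokinases Hk1 and Hk2, the phosphofructokinase Pfkp, the enzymes Aldoa, Pgk1, Eno1, Pkm and Ldha, and the monocarboxylate exporter Slc16a3. The 10 genes were found by matching the Ensembl IDs of the count table to these symbols, which gave 11 rows of the 56953 in the table. Aldoa had 2 rows, and the second of them held 4 counts in all, so the row with 48591 counts was used. All 10 passed the filter on low counts.

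The cells were crude stromal vascular fraction (SVF), the cells left when mature adipocytes are removed from digested fat, of adult C57BL6/J mice. They came from inguinal white adipose tissue (iWAT, subcutaneous) or perigonadal white adipose tissue (pgWAT, visceral) and were grown in 96-well plates for 4 days in PM1 medium with 1 nM basic FGF. The libraries numbered 10 in iWAT male, 9 in iWAT female, 4 in pgWAT male and 6 in pgWAT female, and no culture went without basic FGF. These are the sizes the labels give, and the study's text gives other sizes for some of these groups. The study describes the wells as technical replicates of a small number of independent experiments, and the labels do not say which well belongs to which, so every p-value measures the spread between wells, which may be technical.

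Glycolysis splits glucose into pyruvate in the cytosol and yields ATP without oxygen. Facilitative transporters such as GLUT1, encoded by Slc2a1, bring glucose in. Hexokinases trap it as glucose-6-phosphate, and phosphofructokinase commits it to the pathway. Aldolase, phosphoglycerate kinase, enolase and pyruvate kinase carry it on to pyruvate, lactate dehydrogenase A reduces pyruvate to lactate, and MCT4, encoded by Slc16a3, lets lactate out of the cell. Most of these genes are textbook targets of hypoxia-inducible factors, which bind a short core sequence in DNA, and proliferating or oxygen-poor cells are known for high levels of them.

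Sequence upstream of the start sites is shown for 3 of the genes whose levels rose and fell together across wells, because they carry this core sequence. A table of RefSeq promoters on GRCm38.p6 held 17 windows of the 10 genes, and the 250 bases before each start were searched on both strands for ACGTG and GCGTG, the 2 forms of the core. ACGTG was in 8 of the 17 windows, covering 7 of the 10 genes, and in 16.6% of all 32817 windows. GCGTG was in 7 of the 17 windows, covering 5 genes, and in 28.1% of all windows. Some windows of Aldoa and of Eno1 overlap each other, so the windows are not independent. Hk2, Aldoa, Pgk1, Pkm and Slc16a3 held ACGTG alone, Hk1, Pfkp and Eno1 held GCGTG alone, Slc2a1 held both in its single window, and Ldha held 1 form in each of its windows. Capitals mark ACGTG or its reverse complement in chr11:120948817-120949066 (Slc16a3), chrX:106186850-106187099 (Pgk1) and chr7:46845554-46845803 (the upstream of 2 Ldha windows), all on the + strand.
Slc16a3: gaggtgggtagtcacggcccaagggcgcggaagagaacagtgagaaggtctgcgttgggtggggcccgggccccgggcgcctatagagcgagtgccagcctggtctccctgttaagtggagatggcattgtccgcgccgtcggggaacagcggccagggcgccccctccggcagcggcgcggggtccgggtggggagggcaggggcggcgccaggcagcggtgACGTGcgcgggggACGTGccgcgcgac
Pgk1: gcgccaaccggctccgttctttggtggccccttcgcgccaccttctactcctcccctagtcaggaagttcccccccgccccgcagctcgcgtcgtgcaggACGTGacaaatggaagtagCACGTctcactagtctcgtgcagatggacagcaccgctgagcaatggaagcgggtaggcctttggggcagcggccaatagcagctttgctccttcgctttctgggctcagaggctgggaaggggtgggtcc
Ldha: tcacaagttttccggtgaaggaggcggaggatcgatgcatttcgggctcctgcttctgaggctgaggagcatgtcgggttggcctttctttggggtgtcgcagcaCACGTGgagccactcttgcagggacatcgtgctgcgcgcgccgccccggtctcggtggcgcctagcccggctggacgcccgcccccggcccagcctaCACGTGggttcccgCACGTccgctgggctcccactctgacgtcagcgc
Slc16a3 and Pgk1 held 2 matches each. Ldha held 5, of which 2 pairs are the overlapping strands of CACGTG, the E-box that is also read by factors such as MYC, and 6.02% of all windows held CACGTG. A match of letters is not a binding site.

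Library totals ranged from 315316 to 1102234 counts, and the 10 genes together took between 1.16% and 2.33% of the counts of each library. Levels are given as CPM, counts scaled to a common library size with TMM factors. The fibroblast marker Pdgfra averaged 272 to 440.1 CPM in the 4 groups. Of genes that define other cells, Slc2a4, the transporter of mature adipocytes, was at a group mean of at most 1.2 CPM, and the adipocyte hormone Lep at most 0.43 CPM. The whole adipocyte list, which also holds Fabp4, Pparg and Lpl, summed to 217 to 1045 CPM in iWAT and 1236 to 2137 CPM in pgWAT, without overlap. Sex-linked transcripts matched the sex label in all 19 iWAT libraries and in 5 of the 10 pgWAT libraries. Replicates were numbered here in sample order within each group, as the labels carry no such numbers. Libraries labelled pgWAT male, replicates 2 and 4, and pgWAT female, replicates 1, 2 and 3, did not match. The depot comparison is therefore also given without these 5, and sex is compared in pgWAT only as labelled.

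Per length of transcript, the genes fell into 2 sets. CPM per kb of the longest coding transcript, averaged over the 29 libraries, was 2390 ± 402 for Pkm, 1983 ± 608 for Eno1, 1766 ± 405 for Aldoa, 1591 ± 320 for Ldha and 713 ± 211 for Pgk1 (SD, n = 29). The transporters and the first enzymes of the pathway were much lower, at 56.5 ± 37.2 for Slc16a3, 51.6 ± 15.2 for Slc2a1, 44.0 ± 13.4 for Hk1, 34.6 ± 7.92 for Pfkp and 7.27 ± 3.55 for Hk2 (SD, n = 29). The ranges of Pgk1 and Slc16a3, and of Pfkp and Hk2, did not overlap, while all other neighbours in this order overlapped. Slc16a3 was above Slc2a1 in 15 of 29 libraries, so these neighbours did not differ beyond their spread. The place of Slc16a3 depended on the group. In iWAT male it averaged 20.7 CPM per kb, below Slc2a1 at 41.7, Hk1 at 33.5 and Pfkp at 31.1, and in pgWAT female it averaged 101.5, above Slc2a1 at 70.3. By median transcript length it stayed below Slc2a1 in pgWAT female too, at 271 against 344. With the median coding transcript as the length, all values but that of Pgk1 moved by more than 1 SD, and Hk1 came to 324 and Slc2a1 to 253, above Slc16a3 at 151.

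**Figure D1:**
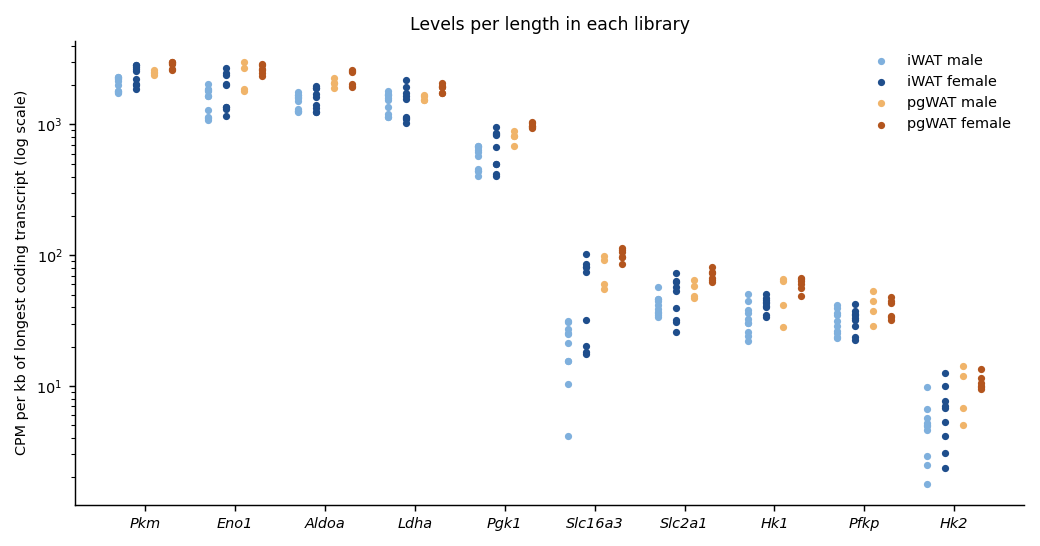
Levels per length of the 10 genes in every library, as CPM per kb of the longest coding transcript on a log axis, ordered by their mean. Each point is a library and colours mark the 4 groups. Pkm, Eno1, Aldoa, Ldha and Pgk1 lie above the other 5 genes, Hk2 is lowest, and Slc16a3 spans the widest range.

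The depot comparison asked whether the cultures kept a difference in these genes between visceral and subcutaneous origin. Of the 10 genes 9 were higher in pgWAT and none was lower. Slc16a3 rose most, followed by Hk2, and the glycolytic enzymes rose by smaller amounts. Of all 8853 genes tested with edgeR's quasi-likelihood test, 20.1% were called higher and 17.9% lower at a Benjamini-Hochberg FDR below 0.05. The median log2 fold change was 0.52 over the 10 genes and 0.01 over all genes tested. These are bulk cultures, so fewer cells of a type and less RNA per cell cannot be told apart.

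Slc2a1, the entry point of glucose, had 154, 160, 189 and 212 CPM in the 4 libraries labelled pgWAT male and between 202 and 267 CPM in the 6 labelled pgWAT female, with a median of 228. In iWAT male it ranged from 109 to 188 with a median of 131, and in iWAT female from 84.6 to 239 with a median of 173. All 10 pgWAT libraries lay above the iWAT mean, but the depots overlapped. The log2 fold change was 0.47 (SE 0.13, FDR 0.0041 in edgeR).

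The hexokinases carry the first step. Hk1, the common isoform, had 122, 178, 270 and 280 CPM in pgWAT male and a median of 265 in pgWAT female, between 207 and 287. Its median was 134 in iWAT male, between 93.9 and 216, and 185 in iWAT female, between 145 and 217. The 2 highest pgWAT male values belonged to the libraries whose sex-linked transcripts did not match. The same 2 libraries were the highest of pgWAT male for Hk2, Pfkp, Eno1 and Slc16a3, and the lowest for Slc2a1. For Aldoa, Pgk1, Pkm and Ldha they did not lie together at the top or the bottom. Replicate 2 was the highest for Aldoa and Ldha, and replicate 4 was the lowest for Aldoa and Pkm and the highest for Pgk1. The log2 fold change of Hk1 was 0.54 (SE 0.12, FDR 0.00072 in edgeR). Hk2, the isoform that many growing and insulin-responsive cells induce, was the scarcest of the 10 and had between 6 and 61 counts per library. It had 27.8, 37.5, 65.3 and 77.8 CPM in pgWAT male, a median of 56.9 in pgWAT female, 27.5 in iWAT male and 37.3 in iWAT female, and a log2 fold change of 0.90 (SE 0.21, FDR 0.0010 in edgeR).

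Pfkp, the platelet-type phosphofructokinase, had 119, 156, 186 and 221 CPM in pgWAT male, a median of 160 in pgWAT female, 125 in iWAT male and 138 in iWAT female. Its log2 fold change of 0.34 (SE 0.12, FDR 0.022 in edgeR) was small, and the depots overlapped widely. Without the library labelled pgWAT male replicate 2 or 4 it was not called (FDR 0.094 and 0.064).

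The enzymes of the lower pathway were the most abundant of the 10. Aldoa, fructose-bisphosphate aldolase, had 2937, 3194, 3234 and 3483 CPM in pgWAT male and a median of 3541 in pgWAT female, against medians of 2404 in iWAT male and 2492 in iWAT female. Only 2 of 19 iWAT libraries, with at most 3056 CPM, reached the lowest pgWAT value. Its log2 fold change was 0.50 (SE 0.088, FDR 2.9e-05 in edgeR). Pgk1, which makes the first ATP of the pathway, had 1244, 1487, 1496 and 1621 CPM in pgWAT male and between 1726 and 1905 CPM in pgWAT female, against medians of 1078 in iWAT male and 1225 in iWAT female. The 10 iWAT male libraries reached at most 1251 CPM, just above the lowest of pgWAT male. Pgk1 rose by 0.55 (SE 0.12, FDR 0.00055 in edgeR) and Eno1, enolase, by 0.56 (SE 0.13, FDR 0.00081 in edgeR). Eno1 had 3681, 3819, 5506 and 6079 CPM in pgWAT male and a median of 5346 in pgWAT female, against 3355 in iWAT male and 4039 in iWAT female. Pkm, pyruvate kinase of the muscle type, whose M1 and M2 forms a gene count does not separate, was the most abundant, with 5788, 5973, 6100.1 and 6312 CPM in pgWAT male and 6390.1 to 7331 CPM in pgWAT female. Its iWAT values ran from 4210 to 6977 CPM and overlapped those of pgWAT, and the log2 fold change of 0.26 was small (SE 0.076, FDR 0.0063 in edgeR).

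Ldha, which turns pyruvate into lactate, was the exception. It had 2780, 2811, 3005 and 3051 CPM in pgWAT male, inside the iWAT range of 1854 to 3980, and a median of 3503 in pgWAT female. The log2 fold change of 0.23 (SE 0.11) did not pass the test (FDR 0.093 in edgeR). It passed without the library iWAT female replicate 9 (FDR 0.033), which held the highest Ldha value of all.

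Slc16a3, the lactate exporter, differed most. It had 241, 261, 400.5 and 427 CPM in pgWAT male and between 370 and 496 CPM in pgWAT female, with a median of 442. In iWAT male all 10 libraries lay between 18.1 and 136 CPM, with a median of 100.2. In iWAT female the values ran from 75.7 to 442 with a median of 325, so the males of the depots did not overlap while the females did. The log2 fold change was 1.38 (SE 0.25, FDR 3.0e-05 in edgeR), a 2.59-fold difference, and 10 of 10 pgWAT libraries lay above the iWAT mean.

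**Figure D2:**
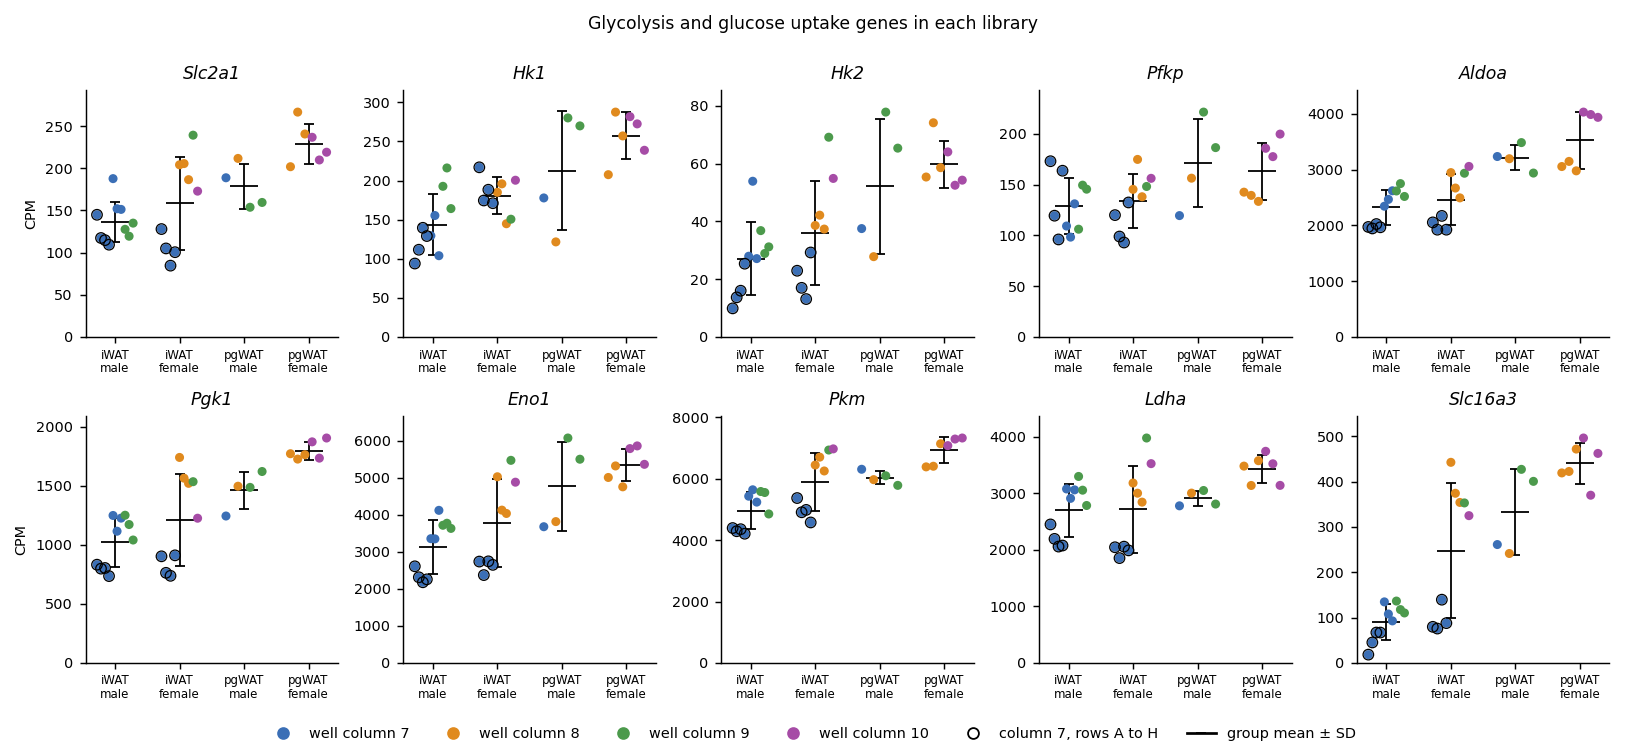
CPM of the 10 genes in each of the 29 libraries by depot and labelled sex, on linear axes that start at 0. Points are libraries coloured by plate column, bars are the group mean ± SD, and open rings mark the 8 iWAT wells of column 7, rows A to H. In iWAT female the ringed wells lie below the others for every gene but Hk1.

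Within the labelled sexes the direction was the same for all 10 genes. In males 6 of the 10 were called higher in pgWAT, Hk1, Hk2, Aldoa, Pgk1, Eno1 and Slc16a3, against 11.8% of all genes. Slc16a3 led with a log2 fold change of 1.91 (SE 0.36, FDR 0.00022 in edgeR). Without the library labelled pgWAT male replicate 2 or 4, the count fell to 2. In females 6 were called higher, Slc2a1, Hk1, Hk2, Aldoa, Pgk1 and Eno1, against 14.2% of all genes. Here Slc16a3 had a log2 fold change of 0.84 (SE 0.33) and missed the threshold (FDR 0.054 in edgeR). It passed without the library iWAT male replicate 1 or iWAT female replicate 6, 7, 8 or 9 (FDR 0.024 to 0.044 in edgeR). The female count fell to 3 without the library labelled pgWAT female replicate 5.

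The difference between the depot effects of libraries labelled male and those labelled female was tested as an interaction. As 5 of the 10 pgWAT labels did not match, it compares labels in pgWAT. None of the 10 genes was called, against 0.181% of all genes, and 1 of them, Slc16a3, had an unadjusted p below 0.05 in edgeR, while limma-voom and DESeq2 gave none. The interaction of Slc16a3 was 1.08 on the log2 scale (SE 0.50, FDR 0.53 in edgeR).

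Leaving out the 5 pgWAT libraries that did not match their sex label left 4 of the 10 genes higher in pgWAT, against 12.2% of all genes. They were Slc2a1 (0.57, SE 0.17), Aldoa (0.38, SE 0.11), Pgk1 (0.47, SE 0.16) and Slc16a3 (1.16, SE 0.31). Hk1 moved from 0.54 to 0.25 (SE 0.15, FDR 0.23 in edgeR) and Pfkp to 0.05 (SE 0.14). All 10 estimates stayed above 0, from 3 fewer female and 2 fewer male libraries.

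The sample titles end in a plate position. Their rows run to P, which a 96-well plate does not have, so they are taken as positions on the plate in which the study's methods say the sequencing libraries were prepared, and where a culture stood on its own plate is not given. The wells of a group stood in different columns of this plate, and the genes differed between columns. With plate column as a factor over all libraries, 6 of the 10 were called higher in pgWAT, against 15.8% of all genes. They were Hk1 (0.51, SE 0.12), Hk2 (0.65, SE 0.21), Aldoa (0.31, SE 0.079), Pgk1 (0.30, SE 0.11), Eno1 (0.31, SE 0.11) and Slc16a3 (0.93, SE 0.21). Within column 9 alone, where the pgWAT wells were the 2 libraries labelled male that did not match, 6 were called between 2 pgWAT and 3 iWAT male wells, against 13.5% of all genes. These included Slc16a3 (1.79, SE 0.17) and Eno1 (0.66, SE 0.13). Within column 8, between 3 pgWAT female and 3 iWAT female wells, all with matching transcripts, only Hk1 was called (0.51, SE 0.17, FDR 0.040 in edgeR), against 9.49% of all genes. Slc16a3 there had 419 to 472 CPM in pgWAT and 354 to 442 CPM in iWAT, a log2 difference of 0.16 (SE 0.13, FDR 0.49 in edgeR).

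**Figure D3:**
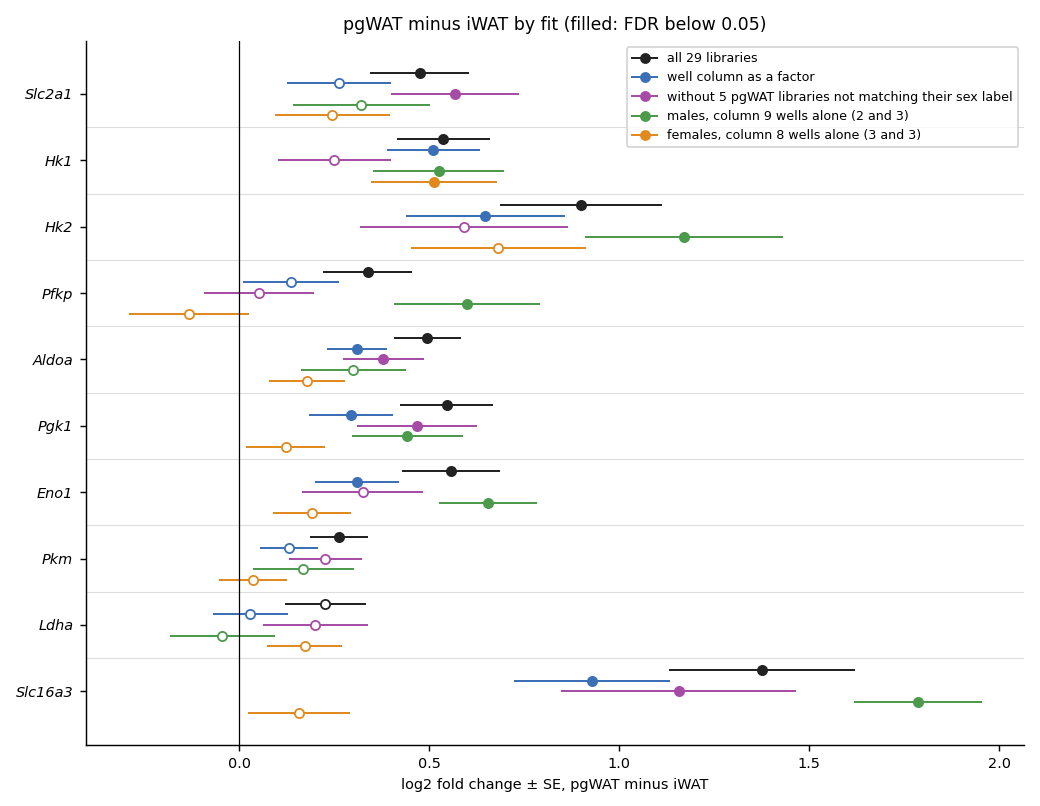
Log2 fold change of each gene between pgWAT and iWAT with its SE in 5 fits. Filled points passed an FDR of 0.05. The female wells of column 8 give 0.04 for Pkm, 0.12 for Pgk1 and 0.16 for Slc16a3, whereas Hk1 lies between 0.51 and 0.54 in 4 of the 5 fits.

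Because of this, wells of a single group were compared between columns, a comparison added after the values were seen. It took every pair of columns that held at least 3 wells of a group. In iWAT female, 7 of the 10 genes were higher in the 3 wells of column 8 than in the 4 wells of column 7, against 2.39% of all 8853 genes. Slc16a3 had 75.7, 79.5, 87.6 and 139 CPM in column 7 and 354, 374 and 442 CPM in column 8, a log2 fold change of 2.02 (SE 0.27, FDR 2.0e-05 in edgeR). Pgk1 (0.96, SE 0.15), Slc2a1 (0.93, SE 0.17), Eno1 (0.75, SE 0.15), Ldha (0.60, SE 0.13), Aldoa (0.42, SE 0.11) and Pkm (0.38, SE 0.11) rose as well. Aldoa and Pkm lost the call in some fits without 1 library, and the count ranged from 5 to 8. Hk1 did not follow (-0.10, SE 0.16, FDR 0.81 in edgeR). The single iWAT female wells in columns 9 and 10 had 353 and 325 CPM of Slc16a3, close to those of column 8.

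For 9 of the 10 genes all 4 iWAT female wells of column 7 lay below the other 5, which held for 2.91% of all genes tested. Hk1 was the other. For 7 of these 9 genes, Hk2 and Pfkp aside, the 4 column 7 wells also lay below the pgWAT range, as in 0.813% of all genes. For 6 of these 7, Aldoa aside, at least 4 of the other 5 wells lay inside that range, as in 0.486% of all genes.

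Other well columns gave no calls among the 10 genes, though Hk1 differed more between columns in iWAT male than in iWAT female. In iWAT male none of the 10 genes was called between 3 wells of column 9 and 7 of column 7, against 0.0113% of all genes, although 5 had an unadjusted p below 0.05 in edgeR, or 2 when those wells were fitted alone. Slc16a3 was at 0.73 (SE 0.28, FDR 0.33 in edgeR) and Hk1 at 0.65 (SE 0.15, FDR 0.11 in edgeR). In pgWAT female none was called between columns 10 and 8, against 4.24% of all genes, and 2 had an unadjusted p below 0.05 in either fit. The column 10 wells were the libraries whose sex-linked transcripts did not match.

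**Figure D4:**
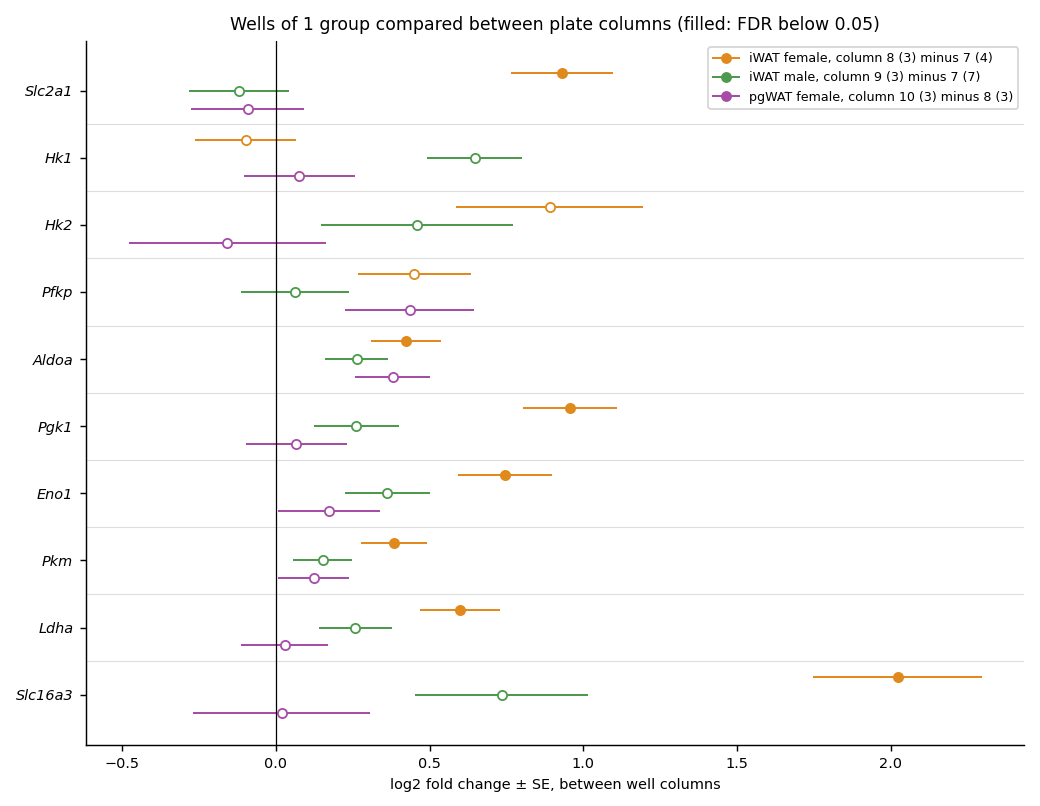
Log2 fold change with SE of each gene between plate columns within 1 group, with the number of wells in brackets. Filled points passed an FDR of 0.05. The iWAT female wells differ between columns 8 and 7 in 7 genes, the other groups in none, and Hk1 shows no difference in iWAT female.

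The low wells were next to each other. Rows A to H of column 7 held 4 iWAT male wells followed by 4 iWAT female wells, and the 3 remaining iWAT male wells of that column stood in rows N to P. The summed CPM of the 10 genes was 11738 to 13681 in the 8 wells of rows A to H and 15419 to 21824 in the other 11 iWAT wells, so they did not overlap. The 10 pgWAT libraries ran from 18034 to 23788. Aldoa, Pgk1, Eno1 and Ldha each separated these 8 wells from the other 11 with no overlap, as did 0.136% of all genes tested, 12 in all. Eno1 had at most 2744 CPM in the 8 wells and at least 3352 in the other 11. The other 8 genes were Fam162a and Higd1a, mitochondrial proteins known to be induced by hypoxia, and Kpnb1, Esyt2, Tm9sf2, Lrrk2, H2afz and Ccdc58. No pgWAT well stood in those rows of column 7, and the labels give no experiment for any well. The part of plate position or of a separate experiment in these values was not tested. The rows were singled out because of these values, so the 8 wells were not tested against the other 11. Fits that leave them out or use them alone are given as descriptions.

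Without those 8 wells, 6 of the 10 genes had an FDR below 0.05 for a higher level in pgWAT, against 18.5% of all genes. Slc16a3 (0.88, SE 0.11), Hk2 (0.50, SE 0.18), Hk1 (0.48, SE 0.14), Aldoa (0.33, SE 0.079), Eno1 (0.28, SE 0.095) and Pgk1 (0.28, SE 0.078) were those 6. Slc2a1 was at 0.24 (SE 0.10), Pfkp at 0.27 (SE 0.12) and Pkm at 0.11 (SE 0.063), and Ldha had a log2 difference of -0.0018 (SE 0.074).

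The sexes were compared in iWAT, where every label matched. Slc16a3 was the only 1 of the 10 genes called, lower in males by a log2 fold change of -1.48 (SE 0.31, FDR 0.0043 in edgeR), against 2.13% of all genes called lower. The estimates of the other 9 lay between -0.41 for Hk2 and -0.01 for Ldha. Column 7 held 7 male and 4 female wells, and there Slc16a3 was at -0.41 (SE 0.31, FDR 0.53 in edgeR), while Hk1 was called (-0.62, SE 0.15, FDR 0.025), against 1.45% of all genes. Within rows A to H of column 7, 4 wells against 4, Slc16a3 had 18.1, 45.0, 66.8 and 66.9 CPM in males and 75.7, 79.5, 87.6 and 139 CPM in females. The sexes did not overlap, and the difference was -0.94 (SE 0.28, FDR 0.064 in edgeR). Hk1 was at -0.67 there (SE 0.16, FDR 0.022 in edgeR), and 1.84% of all genes had an FDR below 0.05 for a lower level in males. These 8 wells were picked for low values of the 10 genes in both sexes, so these values are a description and no test. In the other 11 iWAT wells Slc16a3 ranged from 92.6 to 136 CPM in 6 male wells and from 325 to 442 CPM in 5 female wells. That difference was -1.66 (SE 0.16), and Hk1 was at -0.11 (SE 0.20). As these 11 wells are what is left after wells were taken out for their values, this is a description and no test, and 1.39% of all genes had an FDR below 0.05 for a lower level in males in that fit.

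In the fit without the 8 wells the interaction of depot and sex for Slc16a3 was 1.26 (SE 0.22). It was among the 0.129% of all genes with an FDR below 0.05, which is no test for the same reason. There its log2 fold change between depots was 1.51 (SE 0.16) in males and 0.25 (SE 0.15) in females. In pgWAT 2 of the 4 libraries labelled male and 3 of the 6 labelled female did not match their label.

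Marker genes of several cell types, fibroblasts included, also differed between the sexes in iWAT. The keratins Krt8 and Krt18, found in simple epithelia, averaged 143 ± 228 and 110.2 ± 187 CPM in iWAT female (SD, n = 9) and 0.22 ± 0.68 and 1.4 ± 2.0 CPM in iWAT male (SD, n = 10), and the summed epithelial list reached 1508 CPM in 1 iWAT female library. The summed macrophage list was 196 to 306 CPM in males and 91.6 to 171 CPM in females, and the summed adipocyte list 612 to 1045 and 217 to 516 CPM. Smooth muscle genes summed to 584 to 837 CPM in males and 836 to 3539 CPM in females. Of 3 tested, Acta2 (-1.01, SE 0.20) and Tagln (-1.23, SE 0.23) were lower in males. Mylk lay the other way but was not called (0.74, SE 0.38, FDR 0.35 in edgeR). Of 6 fibroblast genes Col1a1 (-1.23, SE 0.22) and Lum (-1.38, SE 0.26) were lower in males. Their part in the sex difference was not tested.

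Between libraries labelled male and female in pgWAT none of the 10 genes was called, against 0.0113% of all genes, and none had an unadjusted p below 0.05 in edgeR, limma-voom or DESeq2. The estimates ran from -0.40 (SE 0.40) for Slc16a3 to 0.07 (SE 0.19) for Pfkp. As 5 of the 10 labels did not match, these values compare labels.

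Beside the 10 genes, 105 others were followed in 11 lists, of glucose metabolism, of hypoxia-induced genes outside glycolysis and of regulators. Of these, 72 passed the filter, and 38 were higher and 7 lower in pgWAT, where 20.1% of all genes were higher and 17.9% lower. The hypoxia-induced list gave 13 of the 38 from 13 tested genes, and the regulators gave 6 from 8 tested. The count of each list is to be read against these shares. The list of other glycolytic enzymes resembled the 10 genes. Of its 16 genes 10 were tested, with a median log2 fold change of 0.60, 8 were higher and 1 lower. Pfkl (0.97, SE 0.15), the liver-type phosphofructokinase, Pgam1 (0.71, SE 0.16), Tpi1 (0.63, SE 0.12), Gpi1 (0.50, SE 0.073) and Gapdh (0.41, SE 0.11) rose, as did the hexokinase Hk3 (1.07, SE 0.31) and the enolases Eno2 (0.58, SE 0.18) and Eno3 (1.00, SE 0.40). Pfkm, the muscle-type phosphofructokinase, fell by 0.45 (SE 0.17). In the 3 iWAT female wells of column 8 against the 4 of column 7, Gpi1, Pfkl, Tpi1 and Gapdh were higher too, 4 of 10 tested against 2.39% of all genes.

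Among glucose transporters Slc2a1 stood alone. Of 9 others only Slc2a3 (-0.28, SE 0.26, FDR 0.43 in edgeR) and Slc2a10 (0.24, SE 0.17, FDR 0.27) passed the filter, and neither was called. Of the bifunctional enzymes that set fructose-2,6-bisphosphate, an activator of phosphofructokinase, Pfkfb3 rose (0.87, SE 0.26) and Pfkfb4 fell by 1.04 (SE 0.29). Pfkfb3 was also lower in iWAT male than in iWAT female (-1.15, SE 0.32, FDR 0.041 in edgeR).

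Basigin (Bsg), the chaperone that carries MCT4 to the cell surface, rose with Slc16a3 (1.06, SE 0.16, FDR 3.7e-06 in edgeR) and was also lower in iWAT male (-0.72, SE 0.20). Embigin (Emb), the partner of other monocarboxylate transporters, fell by 1.09 (SE 0.17), while Slc16a1, which encodes MCT1, was not called (-0.30, SE 0.23). Ldhb, the other lactate dehydrogenase subunit, rose (0.57, SE 0.15).

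At the entry of pyruvate into mitochondria 4 of 12 tested genes were higher and 2 lower. Pdk1, a kinase that switches pyruvate dehydrogenase off, rose by 1.49 (SE 0.30), and Pdk3 by 0.68 (SE 0.23). The phosphatase Pdp1, which switches it on, fell by 1.04 (SE 0.21), whereas Pdp2 rose (0.44, SE 0.15). The carrier subunit Mpc1 rose (0.25, SE 0.10) and pyruvate carboxylase, Pcx, fell by 0.56 (SE 0.17). Pdk1 was also higher in iWAT female column 8 than in column 7 (2.15, SE 0.45).

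In branches away from glycolysis the values were mixed. None of 6 tested genes of the pentose phosphate pathway was called between depots with edgeR, where G6pdx and Tkt had an unadjusted p below 0.05. Of these genes limma-voom called 0, with 3 below 0.05 unadjusted, and DESeq2 called 1, Tkt, with 2 below 0.05. Their median was -0.11. Of 6 serine and one-carbon genes Shmt1 alone was called, and it fell by 1.94 (SE 0.26). Pgm1 (0.57, SE 0.13), Ugp2 (0.48, SE 0.16) and Pygl (0.92, SE 0.13), which make or break down glycogen, were higher, 3 of 7 tested. Pck2 was higher (0.61, SE 0.18), 1 of 2 tested genes of gluconeogenesis.

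Of the 11 pathway lists, that of hypoxia-induced genes outside glycolysis was the one in which every tested gene was higher. All 13 tested of 16 were higher in pgWAT, with a median log2 fold change of 0.75. Ddit4, an inhibitor of mTOR signalling, Bnip3 (1.37, SE 0.20), a mitophagy receptor, P4ha2 (1.33, SE 0.11), a collagen prolyl hydroxylase, Adm (1.19, SE 0.13), the peptide adrenomedullin, and Vegfa (0.91, SE 0.18) were among them. With plate column as a factor 8 of the 13 were called higher in pgWAT, against 15.8% of all genes. Without the pgWAT libraries that did not match their sex label 9 were, against 12.2%. In iWAT female 7 of the 13, Bnip3, Higd1a, Ddit4, Egln1, Vegfa, Mif and P4ha2, were also higher in column 8 than in column 7, against 2.39% of all genes. In iWAT male 4 of the 13, Bnip3, Adm, Ddit4 and Loxl2, were lower than in iWAT female, against 2.13% of all genes. Among regulators Epas1, which encodes HIF-2 alpha, rose (1.22, SE 0.14), Hif1a rose (0.83, SE 0.20), and Arnt, Vhl, Mlxip and Txnip rose by 0.41 to 0.82. Myc fell by 0.36 (SE 0.15, FDR 0.0498 in edgeR). In all, 6 of 8 tested regulators were higher and 1 lower.

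**Figure D5:**
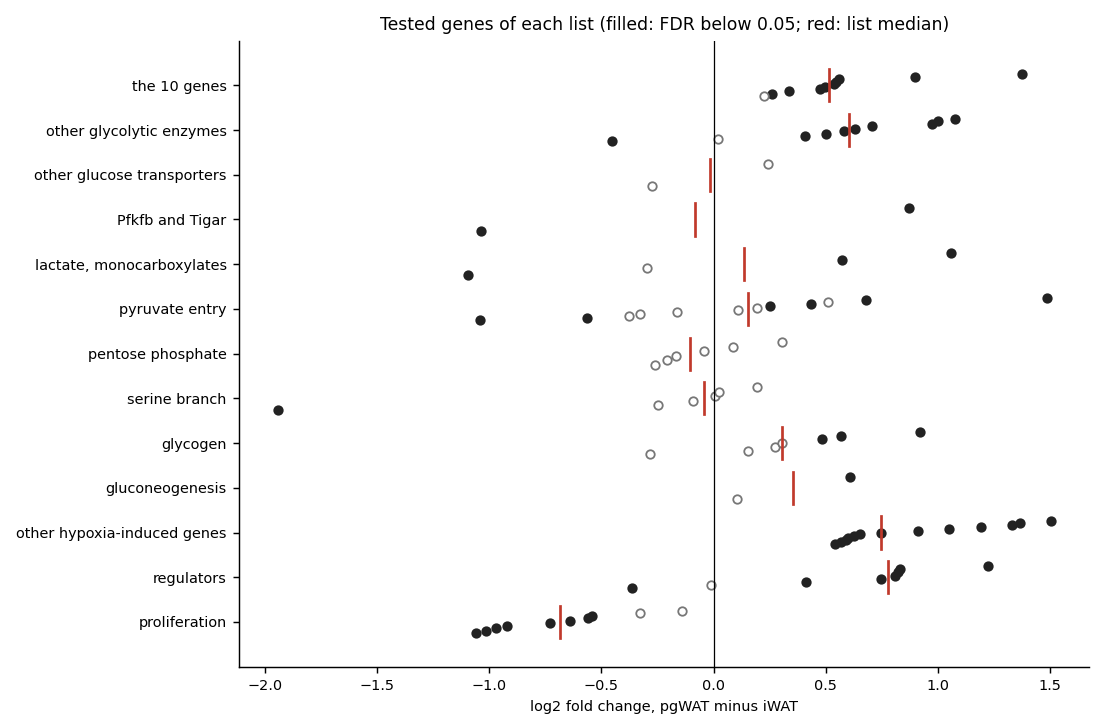
Log2 fold change between pgWAT and iWAT of every tested gene, by list. Filled points passed an FDR of 0.05 and the red line is the median of the list. All points of the 10 genes and of the other hypoxia-induced genes lie to the right of 0, 9 of 10 other glycolytic enzymes do so, and the proliferation genes lie to the left.

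Within the column 8 female wells the same lists were compared between depots. Of 8 tested other glycolytic enzymes 1 was higher, and of 13 hypoxia-induced genes 5, with medians of 0.23 and 0.39, against 9.49% of all genes.

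Several marker lists differed between depots along with the 10 genes. Of 10 proliferation genes 8 were lower in pgWAT, and their summed level was 618 to 1234 CPM against 1048 to 1705 CPM in iWAT. Of 6 fibroblast genes 5 were higher, with sums of 11686 to 22688 and 6387 to 12199 CPM. Mesothelial genes, which cover the surface of visceral fat, summed to 55.5 to 183 CPM in pgWAT and to at most 8.44 CPM in iWAT, and 3 of 3 tested were higher. All 3 tested smooth muscle genes were higher, with sums of 1337 to 3130 and 584 to 3539 CPM. Of adipocyte genes Lpl was higher (1.89, SE 0.13) and Pparg lower (-1.61, SE 0.26), 2 of 3 tested, and the sums of that list, given above, did not overlap. Of macrophage genes 2 of 4 were higher, with sums of 145 to 905 CPM in pgWAT and 91.6 to 306 CPM in iWAT, and of endothelial genes 1 of 3, with sums of 41.5 to 109 and 28.6 to 106 CPM. Of 3 tested epithelial genes 1 was lower, with sums of 13.9 to 189 and 1.96 to 1508 CPM. Lymphatic endothelial and pericyte genes did not pass the filter, with sums of at most 17.9 and 45.0 CPM in any library. The part of these cells in the depot difference was not tested.

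The same lists were compared in the iWAT female wells whose glycolytic genes differed. Between columns 8 and 7 none of 25 tested fibroblast, smooth muscle, macrophage, endothelial, epithelial, mesothelial and adipocyte genes was called with edgeR. Of all 8853 genes, 212 were called higher and 173 lower, so 0 of 25 does not show that these markers were alike. Of the 25, 4 had an unadjusted p below 0.05, and 6 of 18 when the compared wells were fitted alone, which also called 0. Between these columns 1 of 10 proliferation genes, Ccna2, was higher, against 2.39% of all genes. Summed proliferation genes were at 1139 to 1268 CPM in column 8 and 1048 to 1262 CPM in column 7. Total counts were 799831 to 877077 in column 8 and 632176 to 1102234 in column 7.

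The genes varied together within groups. Deviations of log2 CPM from the group mean were compared over the 29 libraries, which share library plate and scaling and differ in depth, as a description. Group means do not take out the 8 low wells of column 7, rows A to H. Their difference from the other iWAT wells therefore enters each r, and no r is given without them. Each gene's Pearson r with the mean of the other 9 was 0.94 for Eno1, 0.90 for Ldha, 0.89 for Pgk1, 0.88 for Pkm, 0.86 for Aldoa, 0.85 for Slc16a3, 0.80 for Hk2 and 0.65 for Slc2a1. It was 0.35 for Pfkp and 0.22 for Hk1. Of all other tested genes, those most like the mean of the 10 were Tpi1 (r = 0.92), Pfkl (0.89), Fam162a (0.88), Higd1a (0.82) and Gys1 (0.81), where Gys1 encodes glycogen synthase.

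Copies of a gene in the genome can take or lend reads. Of 31-base words in its transcripts Pgk1 shared 54.7% with other genes, Pkm 34.7%, Eno1 28.5%, Ldha 19.6% and Aldoa 13.5%, and the other 5 genes at most 0.22%. The copies of Pgk1 that share more than 50 percent of its words, Pgk1-rs7 and Gm5537, had 0 counts, and adding the copies changed no call of the 10 genes in any of the 6 group comparisons.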

How the data were processed

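RNA was sequenced from 29 wells with the Smart-seq3 protocol. Per the labels, tools of the submitters included STAR 2.7.10a, Salmon 1.9.0, FastQC 0.11.9 and MultiQC 1.12 on GRCm39. According to the study's methods, adapters were trimmed with NGmerge and reads with and without molecular identifiers were quantified together. What the authors deposited are expected counts, Salmon estimates that were not normalized, and 96.5% of the values were whole. They were rounded here. Symbols were matched by Ensembl ID to Gencode vM21 (91.4% of 56953 features), and unmatched IDs held 0.439% of counts.

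Wells were grouped by depot and labelled sex. One model with a term per group was fitted with edgeR 4.0.16 in R 4.3.3 (TMM, filterByExpr, two-sided quasi-likelihood test, Benjamini-Hochberg over all 8853 genes kept). The depot comparison weights the sexes equally. SEs come from the F statistic. Alternatives used RLE factors, total counts, no filter, DESeq2 1.42.0, limma 3.58.1 (voom), column of the library plate as a factor or alone, summed copies, and each library left out. At library totals of 315316 to 1102234, the 3 counts that a count of 0 allows come to 2.72 to 9.51 CPM, for counting error only. The fit was tested on simulated data. The 10 genes and all lists were chosen with earlier results of these data known. Genes named are the 10, called genes of the pathway lists, members of marker lists and the 5 genes most like the 10. Plate rows and within-group column comparisons were added after the values were seen. Promoter sequences are RefSeq, GRCm38.p6, and motif shares are over windows with distinct coordinates.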

Additional observations from a re-analysis of the deposited data

How the results depend on the processing

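No paired analysis was possible because the labels carry no replicate numbers. Against 9 of the 10 genes called between depots, RLE factors, total counts, DESeq2 and summed copies also gave 9, voom 10 (19.7% of all genes higher), no filter 7 (7.55%), plate column as a factor 6 (15.8%), and leaving out single libraries 8 to 10. The count moved to 4 (12.2%) without the 5 pgWAT libraries that did not match. In males it moved from 6 (11.8%) to 3 with plate column as a factor (11%), 1 without those libraries (5.84%) and 2 without the 8 wells of column 7, rows A to H (11.7%), and ranged from 2 to 7 over single libraries. In females it moved from 6 (14.2%) to 1 with plate column as a factor (10.2%), 1 within column 8 (9.49%), 0 without the unmatched libraries (9.94%; edgeR, with 6 at an unadjusted p below 0.05) and 2 without the 8 wells (11%), where 1 of 10 is close to the share of all genes, and ranged from 3 to 8. For iWAT sex it moved from 1 to 2 with plate column as a factor (2.72% lower), and for the interaction from 0 to 1 without the 8 wells, which were picked for these values. Between pgWAT female columns 1 gene was called without the library iWAT male replicate 10, giving a range of 0 to 1. Pathway genes called numbered 45, 31 with plate column as a factor, 32 without the unmatched libraries and 38 to 46 over single libraries. The cause of these shifts was not tested.

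The estimates whose sign turned were not called in the fit of all libraries. Ldha turned to -0.0018 between depots without the 8 wells, and in males to -0.072 with plate column as a factor, -0.044 within column 9 and -0.066 without the 8 wells. Pfkp turned to -0.13 within column 8. For iWAT sex, plate column as a factor gave 0.049 for Slc2a1, 0.080 for Pfkp, 0.040 for Aldoa, 0.017 for Pgk1 and 0.16 for Ldha. Column 7 alone gave 0.39 for Slc2a1, 0.13 for Hk2, 0.20 for Pfkp, 0.11 for Aldoa, 0.21 for Pgk1, 0.12 for Eno1 and 0.35 for Ldha. Rows A to H of column 7 gave 0.21 for Slc2a1, 0.30 for Pfkp and 0.13 for Ldha, and voom gave 0.024 for Ldha. Leaving out single libraries moved Pfkp between -0.094 and 0.025 and Ldha between -0.062 and 0.075 for iWAT sex, and Hk1 between -0.19 and 0.019 between iWAT female columns. It also turned the sign of uncalled estimates of Pfkp between pgWAT sexes and iWAT male columns, of Slc2a1, Hk1, Hk2, Ldha and Slc16a3 between pgWAT female columns, and of Hk1, Hk2, Pfkp, Pgk1 and Eno1 in the interaction. Slc16a3 turned to 0.15 between the labelled sexes of pgWAT with plate column as a factor.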
